A study of Mus musculus with 6 samples.

Results

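The integrated stress response and the unfolded protein response were followed through 37 genes, chosen by symbol and grouped by role: 4 sensors, 7 transcription factors, 6 feedback genes, 6 amino acid and one-carbon enzymes, 2 secreted or surface targets, 9 chaperones and folding enzymes of the endoplasmic reticulum (ER) and 3 genes of ER-associated degradation. Of the 41721 genes counted, 36 carried one of these symbols as gene name. *Phgdh*, the remaining one, has a blank name in the table and was identified by its description, so it is given beside the counts and not within them. All 36 passed the filter on low counts, as 14085 genes did in all, and so did *Phgdh*.

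The libraries were made from mouse aortic smooth muscle cells (MASMCs), cells isolated from the abdominal aorta and grown in culture with 10% serum, and sequenced to ask how loss of pyruvate dehydrogenase kinase 4, the mitochondrial kinase encoded by *Pdk4*, affects them. Pdk4fl/fl mice carry *Pdk4* alleles with loxP sites around exons 4, 5 and 6. Pdk4SMKO mice carry the same alleles and a Y-linked *Myh11*-creERT2 transgene, which makes a tamoxifen-dependent Cre recombinase under the promoter of the smooth muscle myosin gene. Per the study's methods, both genotypes received tamoxifen (75 mg/kg/day for 5 days) at 6 weeks of age, cells were taken from mice of 10 weeks, and cultures were used at passages 4 to 8. For in vitro experiments the methods also name 48 h of serum starvation, without saying whether this covered the sequenced cultures. Both genotypes were treated with Ang II (angiotensin II), given in the methods as 1 μM for 48 h, so that no library shows either genotype without it. There were 3 libraries per genotype. The study describes its replicates of this experiment as biological, but neither it nor the labels say whether the libraries came from separate animals, and p-values measure only the spread between these samples, which may be technical.

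Library totals ran from 16526044 to 22481670 counts. Levels are given as CPM, a gene's counts at a common library total after scaling by edgeR's TMM factors, and a gene was called higher or lower at an adjusted p under 0.05 in edgeR's quasi-likelihood test and a fold change of at least 2, relative to Pdk4fl/fl cells. *Pdk4* itself had 38, 35.1 and 31.9 CPM in Pdk4fl/fl and 4.83, 9.06 and 6.92 CPM in Pdk4SMKO cells (log2 fold change -2.34, SE 0.22, edgeR adjusted p = 4.49e-06). *Myh11*, the gene whose promoter drives the Cre, was at most 0.757 CPM in any Pdk4fl/fl library and at most 2.72 CPM in any Pdk4SMKO library. The mice are described as male, while *Xist*, the transcript of the inactive X chromosome of female cells, had 3 to 5 counts in the Pdk4fl/fl libraries and 321 to 610 counts in the Pdk4SMKO libraries. The genotypes stood far apart over all genes, with 59.3% of the genes tested called, 32.8% higher and 26.5% lower. These shares are the background for every count from the main fit below.

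The integrated stress response starts with kinases that phosphorylate the translation factor eIF2, among them PERK in the ER membrane and GCN2 on uncharged tRNA. General translation then slows while the mRNA of the transcription factor ATF4 is translated, and ATF4 switches on genes for amino acid synthesis, for the transcription factor CHOP and for GADD34, the phosphatase subunit that removes the phosphate again. The unfolded protein response adds the ER sensors IRE1 and ATF6, whose transcription factors (spliced XBP1 and the cleaved part of ATF6) raise ER chaperones and the machinery that exports misfolded proteins for degradation. ATF4 is controlled by translation and XBP1 by splicing, so gene-level counts do not give the active protein of either.

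Of the genes chosen here, 6 of 7 transcription factors and all 5 named amino acid enzymes were lower in Pdk4SMKO cells, while 6 of 9 ER chaperone and folding genes were higher. Of the 36 genes, 12 were higher (33.33%) and 19 lower (52.78%) in Pdk4SMKO cells, against 32.8% and 26.5% of all genes tested, and 5 were not called (*Ern1*, *Atf6*, *Xbp1*, *Trib3* and *Manf*). The median log2 fold change of the 36 was -1.15, and that of all genes tested was 0.12. For 34 of the 36, the genotypes did not overlap in CPM, which held for 81.8% of all genes tested. In such cases the exact two-sided permutation test gives p = 0.1, the smallest that 3 libraries against 3 allow, so the calls rest on the fit across all genes. With library size alone in place of TMM, which raises the median of all genes by 0.60 on the log2 scale, 14 of the 36 were higher and 14 lower, against 43.9% and 17.0% of all genes. With upper-quartile scaling 12 were higher and 17 lower, against 36.4% and 22.9%.

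**Figure D1:**
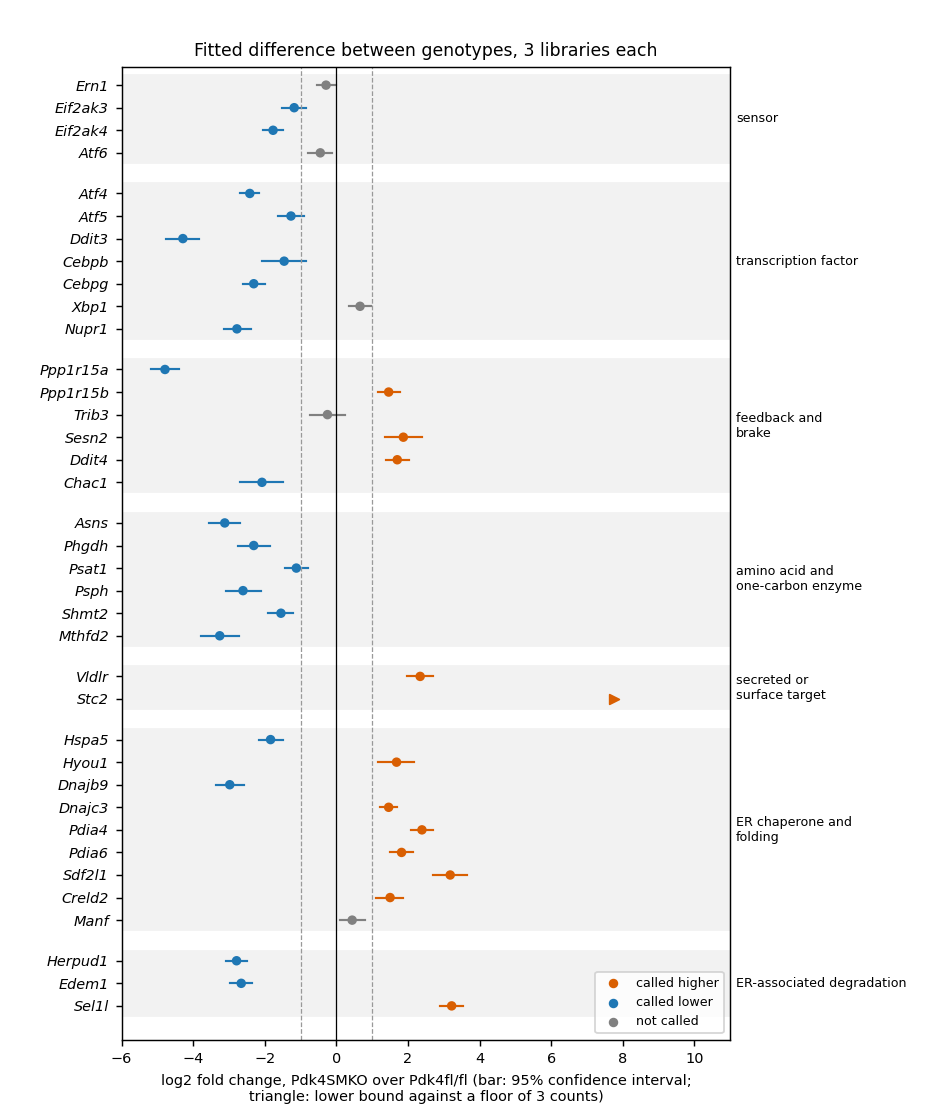
The horizontal axis is the log2 fold change of Pdk4SMKO over Pdk4fl/fl cells for each of the 37 genes, with 95% confidence intervals as bars, grouped by role; colours mark called higher, called lower and not called, dashed lines the fold limit, and the triangle of *Stc2* a lower bound. Transcription factors and amino acid enzymes lie left of 0 apart from *Xbp1*, while 6 of the 9 ER chaperone and folding genes lie right of the limit and *Hspa5* and *Dnajb9* left of it.

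Among the sensors, the eIF2 kinase genes *Eif2ak4* and *Eif2ak3* were lower and the genes of the other ER sensors were not called. Of the eIF2 kinase genes in a further list given below, *Eif2ak2* was higher (log2 fold change 1.69) and *Eif2ak1* was not called (0.43). *Eif2ak4*, which encodes the amino acid sensor GCN2, had 139, 132 and 110 CPM in Pdk4fl/fl and 35.7, 38.5 and 37.5 CPM in Pdk4SMKO cells (log2 fold change -1.77, SE 0.13, edgeR adjusted p = 7.65e-07). *Eif2ak3*, which encodes PERK, had 80.3, 80.3 and 73.0 CPM against 41.8, 30.1 and 31.5 CPM (log2 fold change -1.18, SE 0.15, edgeR adjusted p = 3.89e-05). For *Eif2ak4* and *Eif2ak3* every Pdk4SMKO library lay below every Pdk4fl/fl library. With library size alone *Eif2ak3* had a log2 fold change of -0.57 and with upper-quartile scaling one of -0.96, and it then missed the fold limit. *Ern1*, which encodes the splicing sensor IRE1, had 46.5 to 52.7 CPM against 38.7 to 43.1 CPM, and *Atf6* 154 to 195 CPM against 116 to 154 CPM. Their log2 fold changes of -0.29 and -0.45 changed sign with library size alone, to 0.32 and 0.15.

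Of the 7 transcription factors, 6 were lower and none higher. *Atf4* (MGP_C57BL6NJ_G0022507) had 1133, 1164 and 1217 CPM in Pdk4fl/fl and 225, 221 and 213 CPM in Pdk4SMKO cells (log2 fold change -2.42, SE 0.12, edgeR adjusted p = 5.83e-08). *Ddit3*, the gene of the death-associated factor CHOP, had 450, 415 and 453 CPM against 29.7, 19.4 and 18 CPM (log2 fold change -4.29, SE 0.20, edgeR adjusted p = 4.93e-08). Libraries of 1 genotype lay close together for *Atf4*, while for *Ddit3* Pdk4SMKO replicate 1 lay above the other Pdk4SMKO libraries. The genotypes were far apart in both genes: Pdk4SMKO cells held 18.7% of the Pdk4fl/fl level of *Atf4* and 5.09% of that of *Ddit3*. The span of *Ddit3* shares 68 bases with *Mars* on the opposite strand. Per kilobase of gene length, *Ddit3* stood at 0.400, 0.359 and 0.374 times the level of *Atf4* in the Pdk4fl/fl libraries and at 0.133, 0.0881 and 0.0852 times in the Pdk4SMKO libraries. This ratio, like the others given here, was picked after the values were seen and is a description.

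The partners of ATF4 and CHOP were lower too. *Cebpg*, which encodes a dimerization partner of ATF4, had 116 to 125 CPM in Pdk4fl/fl and 21.3 to 28.7 CPM in Pdk4SMKO cells (log2 fold change -2.31), and *Nupr1*, a stress-induced chromatin cofactor, 288 to 402 CPM against 41.9 to 53.8 CPM (-2.78). *Cebpb*, the C/EBP factor with which CHOP dimerizes, varied between libraries of 1 genotype more than the other transcription factors. It had 694, 844 and 509 CPM in Pdk4fl/fl and 258, 335 and 152 CPM in Pdk4SMKO cells (log2 fold change -1.46, SE 0.27, edgeR adjusted p = 6.42e-04). *Atf5*, an ATF4 target linked to mitochondrial stress, had 222 to 259 CPM against 73.9 to 114 CPM (log2 fold change -1.27, edgeR adjusted p = 5e-05). With library size alone *Cebpb* (-0.86) and *Atf5* (-0.66) missed the fold limit, and *Atf5* shares 512 bases with *Il4i1* on the opposite strand. *Xbp1*, the target of IRE1, had 44.4, 46.5 and 56.7 CPM against 84.5, 76.6 and 71.5 CPM, with all 3 Pdk4SMKO libraries above (log2 fold change 0.66, SE 0.14, edgeR adjusted p = 0.0012). It stayed under the fold limit, except with library size alone, where its log2 fold change was 1.27. Reads spanning the spliced intron of *Xbp1* cannot be told from others in these counts.

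**Figure D2:**
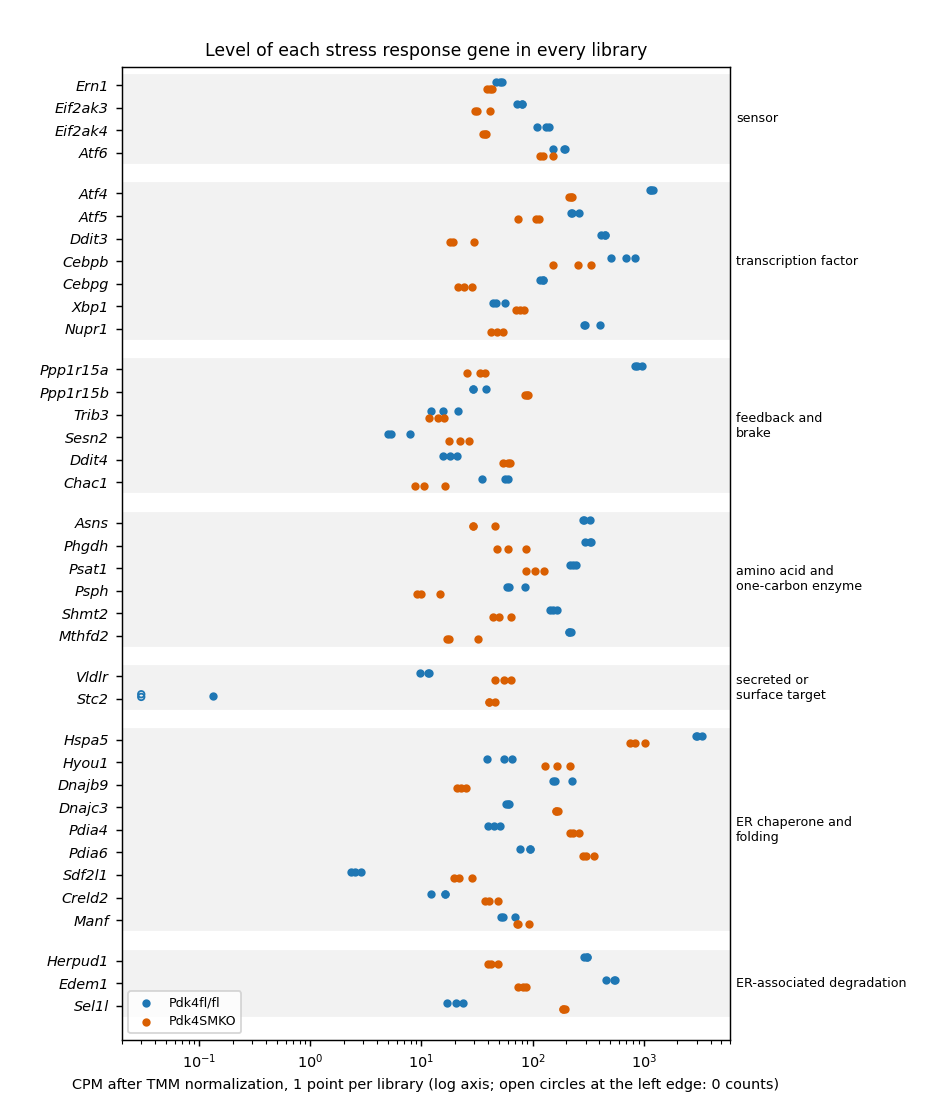
Each point is the CPM of 1 library on a log axis for the genes of the stress response, with Pdk4fl/fl and Pdk4SMKO libraries in separate colours; open circles at the left edge stand for 0 counts of *Stc2*. The 3 libraries of a genotype lie close together for most genes, as for *Atf4* (1133 to 1217 against 213 to 225 CPM), and the genotypes overlap for *Atf6* and *Trib3* alone.

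The phosphatase subunits that reverse eIF2 phosphorylation exchanged rank. *Ppp1r15a*, which encodes the stress-induced subunit GADD34, had 870, 964 and 834 CPM in Pdk4fl/fl and 33.6, 37.3 and 25.8 CPM in Pdk4SMKO cells, the most negative fold change of the 36 (log2 fold change -4.79, SE 0.18, edgeR adjusted p = 1.54e-08). *Ppp1r15b*, which encodes the constitutive subunit CReP, had 38.4, 28.9 and 29.1 CPM against 88.9, 86.0 and 90.5 CPM (log2 fold change 1.46, SE 0.14, edgeR adjusted p = 5.51e-06). Pdk4SMKO cells thus held 3.62% of the Pdk4fl/fl level of *Ppp1r15a* and 275% of that of *Ppp1r15b*. Per kilobase, *Ppp1r15a* stood at 46.8, 69.0 and 59.2 times the level of *Ppp1r15b* in the Pdk4fl/fl libraries and at 0.781, 0.895 and 0.588 times in the Pdk4SMKO libraries. The ratio is computed within each library and is free of the scaling between libraries.

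The other feedback genes were split. *Sesn2* and *Ddit4*, whose products hold back the growth kinase mTORC1, were higher: *Sesn2* had 5.00 to 7.93 CPM in Pdk4fl/fl and 17.8 to 26.5 CPM in Pdk4SMKO cells (log2 fold change 1.87, edgeR adjusted p = 3.29e-05). *Ddit4* had 15.7, 18 and 20.8 CPM against 54.6, 62.7 and 60.0 CPM (log2 fold change 1.70, edgeR adjusted p = 2.15e-06). *Chac1*, an ATF4 and CHOP target that degrades glutathione, had 56.3, 60.5 and 34.9 CPM against 16.4, 10.6 and 8.78 CPM and was lower (log2 fold change -2.08, edgeR adjusted p = 4.32e-05). *Trib3*, a pseudokinase that is induced by ATF4 and CHOP and restrains them, overlapped between the genotypes, with 21.5, 15.5 and 12.3 CPM against 15.8, 14 and 11.6 CPM. Its log2 fold change was -0.25 with a 95% confidence interval from -0.75 to 0.24 (edgeR adjusted p = 0.313), and 0.35 with library size alone.

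All 5 named enzymes of amino acid and one-carbon metabolism were lower, and so was *Phgdh*. *Asns*, asparagine synthetase and a standard readout of ATF4, had 331, 290 and 286 CPM in Pdk4fl/fl and 46.3, 28.9 and 29.0 CPM in Pdk4SMKO cells (log2 fold change -3.12, SE 0.20, edgeR adjusted p = 2.81e-07). *Mthfd2*, the mitochondrial folate enzyme, had 221, 212 and 211 CPM against 32.5, 17.6 and 17.1 CPM (log2 fold change -3.26, SE 0.24, edgeR adjusted p = 7.55e-07). In both genes Pdk4SMKO replicate 1 was the highest of its genotype, still far below every Pdk4fl/fl library. The serine synthesis enzymes followed in the order of the pathway with log2 fold changes of -2.31 for *Phgdh*, -1.12 for *Psat1* and -2.61 for *Psph*. *Shmt2*, which turns serine into glycine in mitochondria, had 143 to 167 CPM against 44.1 to 64.3 CPM (log2 fold change -1.55, edgeR adjusted p = 7.18e-06). *Psat1* had 229, 219 and 244 CPM against 126, 88.2 and 105 CPM and lay closest to the fold limit. It missed that limit without Pdk4SMKO replicate 2 (-0.99), with upper-quartile scaling (-0.90) and with library size alone (-0.51), where *Shmt2* missed it as well (-0.94). The span of *Psph* shares 452 bases with an unnamed gene on the opposite strand that had 4064 to 5713 counts, and whether the counting used strand is not stated.

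ATF4 with a C/EBP partner binds a composite element read here as TGATGNAA. It was searched on both strands from 250 bases before to 50 after each start site in the RefSeq promoters of GRCm38.p6, in which 33 of the genes were found. It occurred in 6 of these 33 genes (*Asns*, *Chac1*, *Herpud1*, *Nupr1*, *Vldlr* and *Trib3*), and in 1219 of all 27025 genes (4.51%), or 1304 of 32851 promoters (3.97%). The 5 matches upstream of the start site are shown because the genes that hold them include lower and higher ones; capitals mark the match, and each stretch is read 5′ to 3′ on the strand of its gene.
Asns: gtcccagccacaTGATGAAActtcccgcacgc
Chac1: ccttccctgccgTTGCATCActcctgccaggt
Nupr1: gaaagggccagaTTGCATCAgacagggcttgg
Herpud1: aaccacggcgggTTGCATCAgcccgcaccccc
Vldlr: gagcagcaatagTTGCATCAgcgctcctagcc
The first 4 belong to genes that were lower in Pdk4SMKO cells and the last to *Vldlr*, which was higher. They lie at chr6:7693213-7693244 on the minus strand for *Asns*, chr2:119351037-119351068 on the plus strand for *Chac1*, chr7:126625561-126625592 on the minus strand for *Nupr1*, chr8:94386305-94386336 on the plus strand for *Herpud1* and chr19:27216808-27216839 on the plus strand for *Vldlr*. In the last 4 the element stands on the opposite strand to the gene. A match of letters is a description of the sequence and does not show binding. Nor do the shares test enrichment, because the genes were chosen for their place in these responses.

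The secreted and surface targets were both higher. *Stc2*, which encodes the secreted glycoprotein stanniocalcin 2, had 2, 0 and 0 counts in the Pdk4fl/fl libraries and 921, 811 and 940 counts in the Pdk4SMKO libraries, 40.4, 40.4 and 46.1 CPM. Against a floor of 3 counts per library it was at least 214.5-fold higher, a bound that covers counting error alone. *Vldlr*, which encodes a lipoprotein receptor of the cell surface, had 11.6, 9.77 and 11.4 CPM against 45.8, 64.3 and 55.6 CPM (log2 fold change 2.34, SE 0.17, edgeR adjusted p = 6.29e-07).

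Of the 9 ER chaperone and folding genes, 6 were higher, 2 lower and 1 not called. The lower ones are the major ER Hsp70 and a J-protein that binds it. *Hspa5*, which encodes the chaperone BiP, had 3023, 2979 and 3354 CPM in Pdk4fl/fl and 1033, 829 and 758 CPM in Pdk4SMKO cells (log2 fold change -1.84, SE 0.15, edgeR adjusted p = 1.77e-06). *Dnajb9*, which encodes the BiP cochaperone ERdj4, had 154, 161 and 226 CPM against 20.8, 25 and 22.7 CPM (log2 fold change -2.98, SE 0.18, edgeR adjusted p = 1.77e-07). *Hspa5* remained the most abundant of the 36 per kilobase, at 737.5 CPM per kb in Pdk4fl/fl and 206.5 in Pdk4SMKO cells.

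Disulfide isomerases, cochaperones and secreted ER proteins were among the higher genes. The disulfide isomerase genes *Pdia4* (50.6, 44.5 and 39.6 CPM against 261, 231 and 216 CPM) and *Pdia6* (95.2, 77.5 and 94.4 CPM against 356, 302 and 282 CPM) had log2 fold changes of 2.39 and 1.82. *Sdf2l1*, which encodes a partner of the ER J-protein ERdj3, had 2.87, 2.31 and 2.50 CPM against 28.3, 21.6 and 19.7 CPM (log2 fold change 3.18, SE 0.21, edgeR adjusted p = 4.36e-07). In all 3 genes every Pdk4SMKO library exceeded every Pdk4fl/fl library by more than the spread within either genotype. *Hyou1*, the nucleotide exchange factor of BiP, had 65.6, 55.7 and 39.0 CPM against 217, 166 and 130 CPM (log2 fold change 1.68). *Dnajc3*, which encodes the cochaperone p58IPK, had 57.3 to 61.9 CPM against 161 to 168 CPM (log2 fold change 1.46), and *Creld2*, a secreted ER stress protein, 12.3 to 16.4 CPM against 37.7 to 48.7 CPM (1.5). *Manf*, a secreted factor that binds BiP, had 54.1, 52.1 and 70.2 CPM against 93.3, 72.4 and 73.2 CPM, a log2 fold change of 0.44 that did not reach the fold limit, although it was 1.05 and called higher with library size alone. The span of *Manf* shares 7978 bases with *Rbm15b* on the same strand and 46399 with *Vprbp* on the other.

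BiP transcripts therefore fell against *Pdia6* and *Hyou1*, but not against *Dnajb9*, which fell more than *Hspa5* (log2 fold changes -2.98 and -1.84). The ratios below are computed within each library. Per kilobase, *Hspa5* was at 28.1, 34.1 and 31.5 times the level of *Pdia6* in the Pdk4fl/fl libraries and at 2.57, 2.43 and 2.38 times in the Pdk4SMKO libraries. Against *Hyou1* it was at 78.8, 91.4 and 147 times and at 8.16, 8.53 and 9.98 times. Between the J-proteins, *Dnajb9* was at 7.16, 7.79 and 10.2 times the level of *Dnajc3* and at 0.344, 0.427 and 0.393 times, so that the order of the pair turned.

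ATF6 with the factor NF-Y binds the ER stress response element, read here as CCAAT and CCACG with 9 bases of any kind between them, on either strand of the same windows. It occurred in 4 of the 33 genes and in 37 of all 27025 genes (0.137%), or 39 of the 32851 promoters (0.119%). The 33 were chosen as genes of these responses, so a larger share among them is no test of enrichment. These are shown because *Hspa5* was lower and the other three were higher; capitals mark the element.
Hspa5: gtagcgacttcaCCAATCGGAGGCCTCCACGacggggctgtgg
Pdia6: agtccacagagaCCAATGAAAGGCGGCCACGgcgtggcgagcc
Dnajc3: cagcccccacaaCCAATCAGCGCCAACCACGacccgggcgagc
Creld2: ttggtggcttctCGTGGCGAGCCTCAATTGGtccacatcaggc
They lie on the plus strand of GRCm38.p6 at chr2:34772013-34772055, chr12:17266479-17266521, chr14:118937815-118937857 and chr15:88819508-88819550, and in *Creld2* the element stands on the opposite strand to the gene. None of the 33 held TGACGTGG, the core bound by spliced XBP1, which occurred in 193 of all genes (0.714%), or 222 promoters (0.676%). No gene of the 33 held both an ER stress response element and the ATF4 element. These coordinates belong to another assembly than the counts, whose gene identifiers are those of the C57BL/6NJ strain, and the windows of *Atf6*, *Ppp1r15b*, *Hyou1* and *Manf* were not analysed here.

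ER-associated degradation showed the same kind of split. *Sel1l*, the adaptor of the retrotranslocation ubiquitin ligase, had 23.8, 20.4 and 17 CPM in Pdk4fl/fl and 188, 197 and 188 CPM in Pdk4SMKO cells (log2 fold change 3.22, SE 0.15, edgeR adjusted p = 4.23e-08). *Herpud1*, which organizes the same ligase complex, had 306, 309 and 289 CPM against 49.4, 41.9 and 39.6 CPM (log2 fold change -2.79, SE 0.13, edgeR adjusted p = 4.45e-08). *Edem1*, which trims the glycans of misfolded proteins for export, had 455, 538 and 548 CPM against 86.8, 82.6 and 74.1 CPM (log2 fold change -2.66, SE 0.13, edgeR adjusted p = 6.6e-08). The genotypes were far apart in all 3 genes, with *Sel1l* in the opposite direction to the others. Per kilobase, *Herpud1* was at 47.4, 55.9 and 62.7 times the level of *Sel1l* in Pdk4fl/fl and at 0.970, 0.786 and 0.776 times in Pdk4SMKO libraries.

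**Figure D3:**
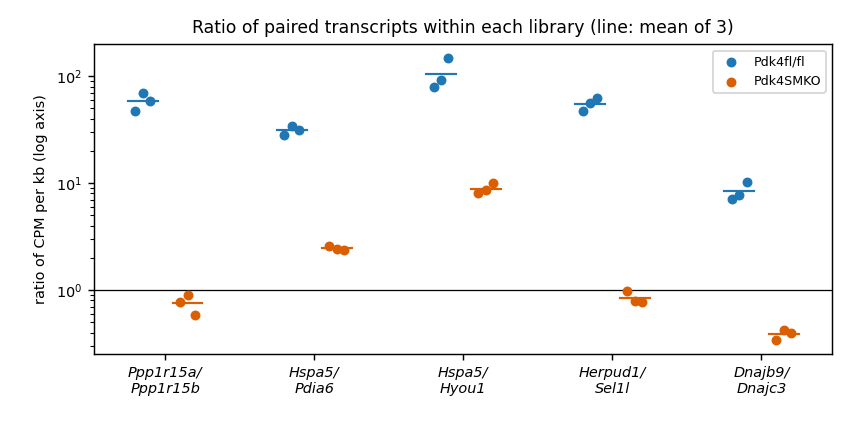
Each point is the ratio of a pair of genes in CPM per kilobase within 1 library, on a log axis, for 5 pairs picked after the values were seen, with a line at the mean of 3 libraries. Pdk4fl/fl libraries lie above Pdk4SMKO libraries in every pair, as for *Ppp1r15a* over *Ppp1r15b* (46.8 to 69.0 against 0.588 to 0.895).

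Other genes of these pathways were taken by role from 8 lists. Of the 112 tested, 18 were higher (16.07%) and 42 lower (37.5%), against 32.8% and 26.5% of all genes tested. The share called was 53.57%, under the 59.3% of all genes. Their median log2 fold change was -0.55, and 52 were not called. With library size alone 34 were higher and 22 lower, against 43.9% and 17.0% of all genes. With upper-quartile scaling 23 were higher and 34 lower, against 36.4% and 22.9%. No other enzyme of amino acid and one-carbon metabolism was higher and 8 of 11 were lower (5 with library size alone), with a median of -1.59. *Shmt1*, the cytosolic counterpart of *Shmt2*, had a log2 fold change of -4.43, the folate dehydrogenase gene *Aldh1l2* one of -3.05 and the aspartate aminotransferase gene *Got1* one of -1.90. Of the genes listed under the mitochondrial stress response, 8 of 11 were lower and none higher (5 and 1 with library size alone). Their median was -1.38, led by *Lonp1* (-3.59) and *Clpp* (-2.16), which encode matrix protease subunits, and *Hspa9* (-2.85), the mitochondrial Hsp70. The 8 lower ones include *Atf2* (-2.02), which encodes a nuclear transcription factor. Among tRNA synthetases and the tRNA exporter gene *Xpot*, 10 of 22 were lower and 1 higher (6 and 5 with library size alone), with *Yars* at -2.99, *Sars* at -2.79 and *Aars* at -2.62.

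Amino acid transporters went both ways. Of 10, 3 were higher and 4 lower (5 and 3 with library size alone), among them the glycine transporter gene *Slc6a9* (log2 fold change -2.70), the cationic amino acid transporter gene *Slc7a3* (-2.63, and -3.23 without Pdk4SMKO replicate 1) and the neutral amino acid transporter gene *Slc1a4* (2.09). *Slc7a11*, which encodes the cystine importer, had a log2 fold change of 1.19 that was 0.77, under the fold limit, once a trend on gene length was removed. Of 14 other genes of the eIF2 pathway, 2 were higher and 5 lower, and with library size alone 5 were higher and none lower. *Oma1*, a mitochondrial protease that relays stress to eIF2 kinases (3.60), and *Eif2ak2*, the kinase PKR (1.69), were the higher ones. *Oma1* had only 13, 5 and 6 counts in the Pdk4fl/fl libraries.

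The remaining ER genes, in the lists that follow, were mixed as well but were called less often than genes at large. In the main fit each list had a smaller share higher than the 32.8% of all genes tested. Each also had a smaller share lower than the 26.5% of all genes. The 6 higher of 9 among the chosen ER chaperone and folding genes was not repeated in the list of other chaperones. Of 16 other chaperones and oxidoreductases, 4 were higher and 3 lower (7 and 1 with library size alone), with *Ero1lb*, an ER oxidase gene, at 2.66, *Txndc11* at 2.57 and *Selenok* at -3.57. *Ero1lb* had only 4, 8 and 3 counts in the Pdk4fl/fl libraries. *Hsp90b1*, the ER Hsp90, had a log2 fold change of 0.91 and was not called, though it passed the fold limit with upper-quartile scaling (1.12) and library size alone (1.52), and narrowly where 10 counts were required in each library. *Calr*, the lectin chaperone calreticulin, had one of -1.19 and missed the limit with upper-quartile scaling (-0.97) and with library size alone (-0.58). Of 18 other genes of degradation and the translocon, 5 were higher and 3 lower (6 and 1 with library size alone, and 1 lower without Pdk4fl/fl replicate 3), among the higher ones *Syvn1*, the ligase that works with SEL1L (2.29), *Edem3* (2.51) and *Edem2* (1.85). While *Edem1* was lower, both of its paralogues were thus higher. Of 10 further ER stress transducers, 3 were higher and 1 lower (5 and 1 with library size alone), with *Wfs1* at 4.34, *Creb3l2* at 2.75 and *Crebrf* at -3.20.

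**Figure D4:**
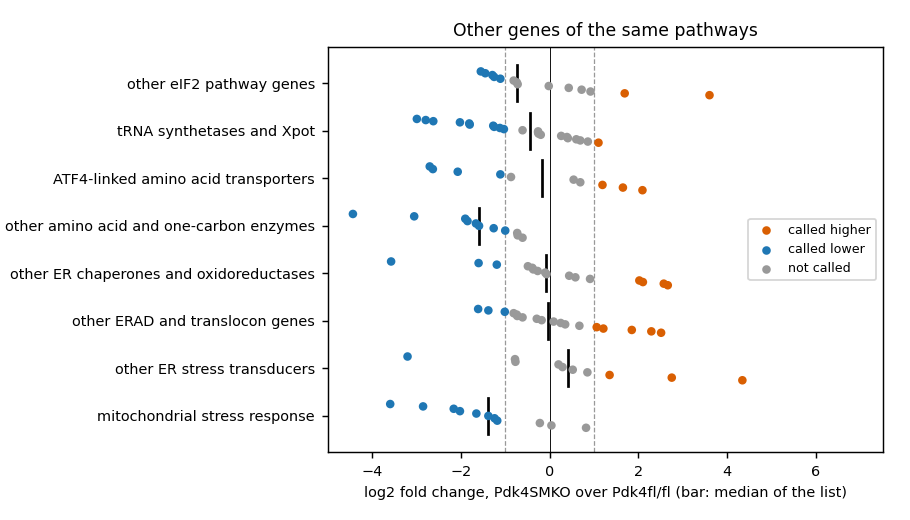
Each point is the log2 fold change of Pdk4SMKO over Pdk4fl/fl cells of 1 tested gene from the 8 lists, with a bar at each list's median and dashed lines at the fold limit. The lists of amino acid enzymes and of mitochondrial stress lie mostly left of 0 (medians -1.59 and -1.38), and the ER lists spread to both sides of it.

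Marker genes of cell types moved with genotype beside these results. The 8 smooth muscle markers summed to 785 to 811 CPM in Pdk4fl/fl and 723 to 954 CPM in Pdk4SMKO libraries, with 4 higher (*Acta2*, *Myh11*, *Lmod1* and *Des*) and 3 lower (*Tagln*, *Cnn1* and *Smtn*). Without *Acta2*, the other 7 summed to 539 to 597 CPM against 103 to 186 CPM. The 8 fibroblast markers summed to 639 to 862 CPM against 5646 to 7334 CPM, with 5 higher and 1 lower. The mesothelial markers summed to 74.2 to 99.99 CPM against 723 to 1325 CPM, with all 7 tested higher. Macrophage markers summed to 21.4 to 38 CPM against 9.71 to 30.5 CPM, with 5 higher (*Adgre1*, *C1qa*, *C1qb*, *Csf1r* and *Tyrobp*) and *Cd68* lower, and 4 of the 7 found had no count in any Pdk4fl/fl library. *Cd68* alone had 37.9, 34.5 and 21.3 CPM against 6.8, 3.1 and 2.9 CPM. It thus made up nearly all of the Pdk4fl/fl sum, and the fall of the sum is that of *Cd68*. Endothelial markers summed to 16.0 to 24.9 CPM against 3.33 to 6.72 CPM, with *Kdr* and *Vwf* lower, *Tie1* at 0 in every Pdk4fl/fl library, and *Cdh5* and *Emcn* at 0 or 1 count in every library. Proliferation markers summed to 424 to 497 CPM against 258 to 435 CPM, with 1 higher and 2 lower of 8. In bulk libraries fewer cells of a type and less RNA per cell cannot be told apart, and the part of these differences in the stress response genes was not tested. Gene length also moved with the calls: the higher of the 36 had a median length of 4460 bases and the lower of 2709 bases, against 4051 and 3088 bases for all genes called. With the trend on gene length removed, 12 of the 36 were higher and 19 lower, against 29.7% and 29.0% of all genes in that fit.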

How the data were processed

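RNA from 6 cultures of MASMCs was sequenced. The authors deposited a single table of raw read counts, with a column for each library and no normalization applied. The labels name GRCm 39 as the build, whereas the gene identifiers and positions are those of the C57BL/6NJ strain assembly. The aligner, the counting program and its use of strand are not given in the sources used here, and the library kit is named differently in the labels and the methods. Groups follow the genotype that each sample's labels give.

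Differences were fitted in edgeR 4.0.16 under R 4.3.3 (filterByExpr, TMM factors, quasi-likelihood test on genotype alone), and p-values were adjusted by the Benjamini-Hochberg method across all 14085 genes that passed the filter. Calls required an adjusted p under 0.05 together with a log2 fold change of 1 or more in size. A floor of 3 counts per library was used only for the lower bound given for *Stc2*, and the fits, CPM and sums used the counts as deposited. Ratios between genes used CPM per kilobase of the length in the table. The fit was tested on simulated data with 200 changed genes, balanced in direction. Far more genes were called in the real libraries, so that test does not bear on the choice of scaling. Genes were named if they were among the 37, or had one of the largest fold changes called in each of the 8 further lists (up to 3 a list), together with *Hsp90b1*, *Calr* and *Slc7a11*. *Atf2* and *Eif2ak1* are also named, to show how they were counted in their lists. The genes, lists and elements were chosen with earlier results of these data known. Alternatives were other scalings (DESeq2's factors, upper-quartile, library size alone), the test of DESeq2 1.42.0, dropping the filter or demanding 10 counts in each library, no fold limit, the replicate number as a block and each library left out in turn. Removing a trend on gene length was added after the values were seen.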

Additional observations from a re-analysis of the deposited data

How the results depend on the processing

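Over 14 other fits (13 for *Stc2*), 29 of the 36 genes kept their call, while *Eif2ak3*, *Psat1*, *Atf5*, *Cebpb*, *Xbp1*, *Shmt2* and *Manf* changed it in at least 1. With library size alone the log2 fold changes of *Ern1* (0.32, edgeR adjusted p = 0.0340), *Atf6* (0.15) and *Trib3* (0.35) turned positive under the fold limit, 2390 of all genes were lower and 6184 higher, and of the further lists 34 genes were higher and 22 lower. The TMM factors were 0.784 to 0.838 in Pdk4fl/fl and 1.21 to 1.26 in Pdk4SMKO libraries, so this choice bears on both genotypes as wholes. With no fold limit 97 of the 112 genes of the further lists were called, 36 of them higher, against 79.1% of all genes called and 42.0% higher. With at least 10 counts in every library *Stc2* was not testable and 11 of the 36 were higher. DESeq2 called 31 of the 36, 12 higher and 19 lower. Of the 17969 genes it tested, it called 9434 (52.5%), 5138 higher (28.6%) and 4296 lower (23.9%). Leaving out each library in turn gave 30 to 31 of the 36 and 8448 to 8589 of all genes. For all genes that was 58.0% to 59.5% of the 14354 to 14607 tested in those fits. It also gave 57 to 61 of the further lists and a *Pdk4* log2 fold change from -2.57 to -2.12. Same-numbered libraries deviated together only weakly (correlations of 0.04, 0.06 and 0.176). Pdk4SMKO replicates 2 and 3 correlated best with their own number, and replicate 1 with another (0.053 against 0.04). These values do not settle whether the numbers are pairs, and the main fit does not pair them. With the replicate block 31 of the 36 were called, 12 higher and 19 lower, and *Pdk4* had -2.36. In that fit 8281 of all genes (58.8%) and 59 of the further lists were called. Among the 36, depth limits *Stc2* and *Sdf2l1* most in Pdk4fl/fl cells, where both had few counts. It also limits *Ero1lb* and *Oma1* of the further lists.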
